A study of Mus musculus with 15 samples.

Results

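Single heart cells traced by Isl1Cre were compared with single heart cells traced by Nkx2-5Cre in mouse embryos at E9.25, where E counts embryonic days. The Isl1Cre group is 1 library from an embryo carrying Isl1Cre::Rosa26tdTomato. The Nkx2-5Cre group is 2 libraries, replicates 1 and 2, whose titles name 1 and the same embryo carrying Nkx2-5Cre::Rosa26tdTomato. All cells with at least 1000 genes above 0 CPM (counts scaled to the same total in each cell) were taken, which kept 91 of 96 Isl1Cre cells and 93 of 96 cells in each Nkx2-5Cre library, 277 in all. The whole series has 1339 such cells in 15 libraries of both lineages, collected at E9.25 and the 3 earlier stages E7.75, E8.25 and E8.75, and the labels give every group the same reporter. Each driver marks descent: tdTomato stays on in any cell whose lineage once expressed the Cre, so a marked cell need not express Isl1 or Nkx2-5 when it is collected. By the labels, cells either passed a FACS sort or had only a trypsin digest before they were picked with a mouth pipette, and the labels do not tie either to a library. With 1 embryo behind each lineage at this stage, lineage, embryo and sex cannot be told apart.

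The second heart field is a pool of progenitors beside the early heart tube that is added to the tube and builds the outflow tract, the right ventricle and parts of the atria. Isl1 encodes a LIM homeodomain factor that marks these progenitors and is shut down as most of them become muscle. Nkx2-5 encodes a homeodomain factor that starts in heart progenitors and stays on in heart muscle, so the descendants marked by both drivers overlap widely.

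The median kept cell held 92068 counts in Isl1Cre, against 103223 and 123962 counts in Nkx2-5Cre replicates 1 and 2, and 5897 detected genes in Isl1Cre, against 6101 and 5538 in Nkx2-5Cre. No 2 cells of these libraries had identical values. The libraries summed to 12876242 counts in Isl1Cre, against 13669314 and 20279001 counts in Nkx2-5Cre. By its transcripts the Isl1Cre embryo was male and the Nkx2-5Cre embryo female. Eif2s3y, a Y-linked gene, averaged 54.0 CPM in Isl1Cre, against 0 and 0 CPM in Nkx2-5Cre, and Xist, the RNA of the silenced X chromosome, averaged 0.0832 CPM in Isl1Cre, against 62.5 and 171 CPM in Nkx2-5Cre. Checked against its markers, the heart tissue label held: all 16 cardiomyocyte markers were detected in each library, and their levels summed to 57020 CPM in Isl1Cre, against 45190 and 40610 CPM in Nkx2-5Cre. Of markers of other cells, the 7 of macrophages summed to 13.6 CPM in Isl1Cre, against 6.66 and 3.38 CPM in Nkx2-5Cre. The 11 of cushion mesenchyme summed to 592 CPM in Isl1Cre, against 472 and 639.5 CPM in Nkx2-5Cre, the 8 of epicardium to 222 CPM in Isl1Cre, against 201 and 172 CPM in Nkx2-5Cre and the 11 of endoderm to 665 CPM in Isl1Cre, against 781 and 689.5 CPM in Nkx2-5Cre. The 10 of neural crest summed to 29.8 CPM in Isl1Cre, against 94.7 and 147 CPM in Nkx2-5Cre. That list shares Ets1 with the endothelial markers, and Ets1 alone gave most of each of these sums. In the cardiomyocyte-like cells classed below, the neural crest list summed to 12.9 CPM in Isl1Cre, against 27.9 and 16.3 CPM in Nkx2-5Cre. The 10 of pharyngeal and head mesoderm summed to 62.0 CPM in Isl1Cre, against 133 and 179.8 CPM in Nkx2-5Cre. Over all kept cells both lists were lower in Isl1Cre than in either Nkx2-5Cre library. The cushion sum lay between, but gene by gene that list leaned lower in Isl1Cre. Of its 8 genes above a filter on low values, 5 lay below both Nkx2-5Cre libraries and 0 above both. Their median log2 difference, Isl1Cre minus Nkx2-5Cre, was -0.77, and -0.23 over 6 genes in cardiomyocyte-like cells.

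Nearly all Isl1Cre cells were cardiomyocyte-like, whereas the Nkx2-5Cre libraries also held a group of endothelial cells. Of 91 Isl1Cre cells, 89 were cardiomyocyte-like, which is 97.8% (exact 95% binomial interval 92.3% to 99.7%). Of 93 cells each, 79 in Nkx2-5Cre replicate 1 (84.9%, 76.0% to 91.5%) and 75 in replicate 2 (80.6%, 71.1% to 88.1%) were cardiomyocyte-like. Endothelial- and endocardial-like cells, which line vessels and the inside of the heart, were 2 of the Isl1Cre cells (2.20%, 0.267% to 7.71%), against 14 in Nkx2-5Cre replicate 1 (15.1%, 8.48% to 23.97%) and 18 in replicate 2 (19.4%, 11.9% to 28.9%). The Isl1Cre interval ended below both Nkx2-5Cre intervals, which cover counting error only. The part of sorting or picking in these shares was not tested. Classes are clusters of all kept cells of the series named from marker genes, and every E9.25 cell fell into 1 of these 2. The endothelial cluster was led by Ramp2, Plvap, Ets1 and Gngt2 and held 80 cells over the series.

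**Figure D1:**
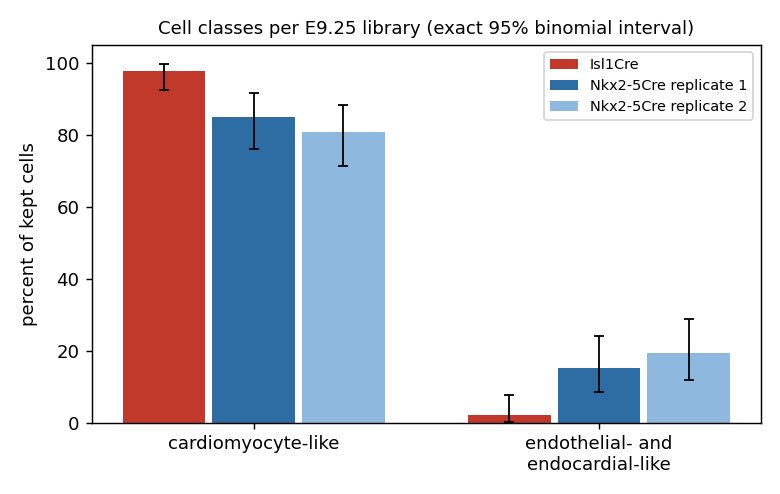
Percent of the kept cells of each E9.25 library in the cardiomyocyte-like and the endothelial- and endocardial-like class, Isl1Cre in red and Nkx2-5Cre replicates 1 and 2 in blue. Bars are shares and whiskers exact 95% binomial intervals. The endothelial share is 2.20% in Isl1Cre, against 15.1% and 19.4% in the Nkx2-5Cre libraries.

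The cardiomyocyte-like cells were spread unevenly over clusters. A cluster led by Nppa, Myl2 and Chchd10 held 42 Isl1Cre cells, against 29 and 20 cells of Nkx2-5Cre replicates 1 and 2. Myh7, Ttn and Tdgf1 led a pair of clusters. The one with Acta1 and Tagln among its 10 leading genes held 18 Isl1Cre cells, against 9 and 17 Nkx2-5Cre cells, and the one with Dusp22 and Pyy held 10 Isl1Cre cells, against 19 and 20 Nkx2-5Cre cells. A cluster led by Nppa, Trdn and Tnni3 held 0 of 91 Isl1Cre cells, which allows a share of up to 3.30% (3 cells of 91), against 8 and 4 Nkx2-5Cre cells. These sizes were not compared by a test, since genes that define clusters differ between the libraries.

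Over all kept cells, limma called 41 of 10670 genes higher in Isl1Cre (0.384%) and 54 lower (0.506%) at a Benjamini-Hochberg adjusted p under 0.05. The model used all 15 libraries, so the single Isl1Cre library was assumed to vary like the groups with 2 libraries. In each of those groups both libraries carry the same embryo number. The p-values thus measure spread between libraries of 1 embryo, which may be technical, and hold no spread between embryos. All 95 called genes had the Isl1Cre library beyond both Nkx2-5Cre libraries, beside 31.4% of all genes tested that lay above both and 42.1% below both. Without Nkx2-5Cre replicate 1 there were 59 calls and without replicate 2 there were 24. Of the 95, edgeR on the recovered counts also called 25 and DESeq2 67. Of 53 called genes examined one by one, 20 were also called by edgeR and 39 by DESeq2. The 20 include Tnni1, Id3, Id1, Col18a1, Lin28a, Sall4, Ndufa12, Rnd3, Wnk1, Igfbp4 and Erdr1. Also among the 20 were the sex-linked genes Xist, Eif2s3y, Uty and Ddx3y and the globin genes Hbb-bh1 and Hba-x. Of the 41 genes called higher, 4 are sex-linked and 2 are globin genes, and Xist is among the 54 called lower. In cardiomyocyte-like cells alone, 16 of 10230 genes were called higher (0.156%) and 11 lower (0.108%), and 21 of these 27 were among the 95. Of the 16, 3 are sex-linked and 2 are globin genes, and Xist is among the 11. Of the 92 genes called over all cells that could be tested in cardiomyocyte-like cells, 91 had a difference of the same sign there. By size alone, with no test, 215 genes (2.01%) lay at least 1 log2 unit above both Nkx2-5Cre libraries and 454 (4.25%) at least 1 below both.

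Below, a level is a library's mean CPM over its kept cells, given for Isl1Cre and then for Nkx2-5Cre replicates 1 and 2. A difference is Isl1Cre minus Nkx2-5Cre in log2(mean CPM + 1) ± SE, with limma's adjusted p over all genes tested. In such whole-library means, fewer cells of a type and less RNA per cell cannot be told apart. Counts within gene lists stand beside these figures for all genes tested. Over all cells, 31.4% lay above both Nkx2-5Cre libraries and 42.1% below both. In limma 1338 of 10670 genes had an unadjusted p under 0.05 over all cells, and 914 of 10230 in cardiomyocyte-like cells.

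**Figure D2:**
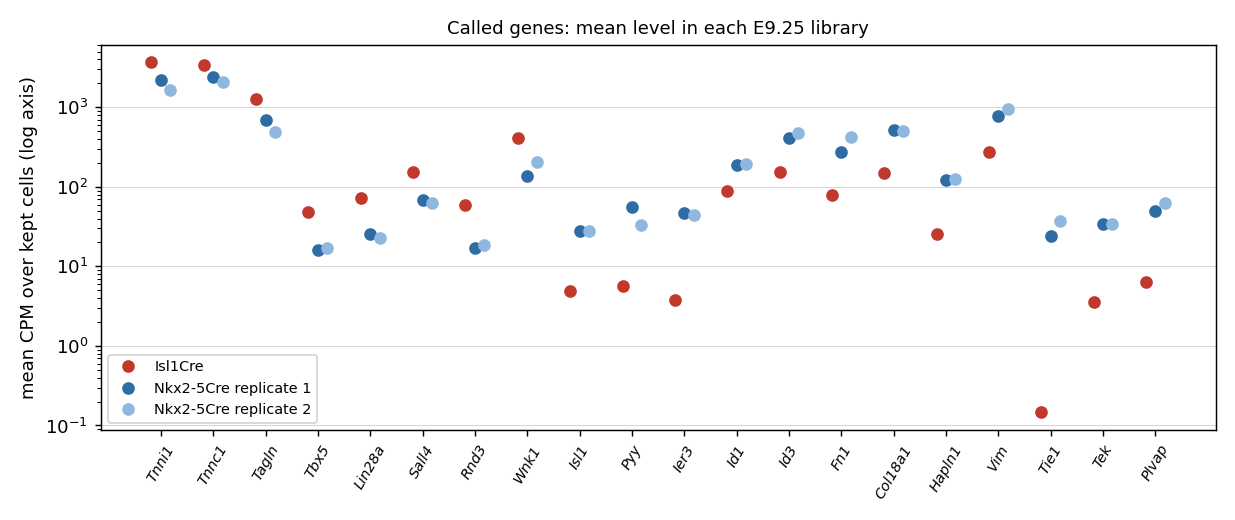
Mean CPM over kept cells (log axis) of 20 called genes in each E9.25 library, Isl1Cre in red left of Nkx2-5Cre replicates 1 and 2 in blue. Each point is 1 library. The Isl1Cre point lies above both others for the 8 genes from Tnni1 to Wnk1 and below both for the 12 from Isl1 to Plvap.

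Contractile genes leaned towards Isl1Cre, and 2 troponin genes passed the test. Tnni1, the slow skeletal troponin I that the embryonic heart uses, averaged 3699.8 CPM in Isl1Cre, against 2176 and 1628 CPM in Nkx2-5Cre. Its quartiles over cells were 3168, 3766 and 4247 CPM in Isl1Cre, against 1680, 2193 and 2567 CPM in Nkx2-5Cre replicate 1 and 1081, 1676 and 2146 CPM in replicate 2. The upper quartile of each Nkx2-5Cre library thus lay below the lower quartile of Isl1Cre, and 94.5% and 96.7% of Isl1Cre cells exceeded the medians of Nkx2-5Cre replicates 1 and 2. Tnni1 rose by 1.05 ± 0.16 (adjusted p = 0.00225) over all cells. In cardiomyocyte-like cells it averaged 3763 CPM in Isl1Cre, against 2441 and 1926 CPM in Nkx2-5Cre and rose by 0.82 ± 0.15 (adjusted p = 0.0150), a call lost without Nkx2-5Cre replicate 2 (0.65, adjusted p = 0.195). Tnnc1, the calcium-binding troponin C of heart and slow muscle, averaged 3438 CPM in Isl1Cre, against 2385 and 2065 CPM in Nkx2-5Cre and rose by 0.70 ± 0.15 (adjusted p = 0.0296). The call of Tnnc1 was lost without replicate 2 (0.61, adjusted p = 0.205), it was called neither by edgeR (adjusted p = 0.158) nor by DESeq2 (adjusted p = 0.0850), and its difference was 0.48 ± 0.13 in cardiomyocyte-like cells (adjusted p = 0.208).

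The 250 bases before the start of both called troponin genes are shown because the genes rose together. They come from RefSeq on GRCm38.p6 and lie on the + strand, Tnni1 at chr1:135799171-135799420 and Tnnc1 at chr14:31208062-31208311. Capitals mark matches to any of 5 motifs searched on both strands. The motifs are TATAAA for the TATA box, AGATAA for GATA factors, CCGGAA for ETS factors, AGGTGT for T-box factors and CATTCC for the M-CAT element, and no 2 matches overlap.
Tnni1: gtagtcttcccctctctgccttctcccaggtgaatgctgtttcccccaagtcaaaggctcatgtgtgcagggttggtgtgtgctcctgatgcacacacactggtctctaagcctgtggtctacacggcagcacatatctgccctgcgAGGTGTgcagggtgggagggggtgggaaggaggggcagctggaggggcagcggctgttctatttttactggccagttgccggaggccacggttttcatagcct
Tnnc1: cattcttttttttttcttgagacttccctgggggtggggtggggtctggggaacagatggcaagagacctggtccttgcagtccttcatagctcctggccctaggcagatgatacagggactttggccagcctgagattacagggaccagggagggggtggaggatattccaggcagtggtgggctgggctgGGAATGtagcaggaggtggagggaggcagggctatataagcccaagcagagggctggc
The Tnni1 window holds a T-box match at -103 from the start, and the Tnnc1 window an M-CAT match on the minus strand at -58. Over 27025 such windows, 12.0% hold AGGTGT and 12.6% hold CATTCC, so a match is common and is a description only.

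Of 38 sarcomere genes, 36 passed the filter on low values, 2 were called higher and 0 lower. The Isl1Cre level lay above both Nkx2-5Cre libraries in 32 of the 36, beside 31.4% of all genes tested. The median difference was 0.40, beside 0.00 over all genes. In cardiomyocyte-like cells the median was 0.16, and Tnni1 was the one gene called. Ttn, the giant spring protein of the sarcomere, averaged 4891 CPM in Isl1Cre, against 2602 and 3377 CPM in Nkx2-5Cre, with a difference of 0.80 ± 0.25 (adjusted p = 0.136). Myh7, the slow myosin heavy chain, averaged 1937 CPM in Isl1Cre, against 1334 and 1127 CPM in Nkx2-5Cre, with a difference of 0.73 ± 0.20 (adjusted p = 0.0904). Tnnt2, the cardiac troponin T used to recognise heart muscle, was closer between libraries within cardiomyocyte-like cells, at 5808 CPM in Isl1Cre, against 5489 and 5183 CPM in Nkx2-5Cre. Myl7, the atrial-type light chain that the whole early heart uses, had a difference of 0.00 ± 0.10 in those cells. The endothelial-like share moved with the all-cell levels, and its part in them was not tested.

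Calcium handling genes had a median difference of 0.43 over the 19 of 23 that passed the filter. Of the 19, 13 lay above both Nkx2-5Cre libraries, beside 31.4% of all genes tested. Limma called 0 of the 19 (5 at an unadjusted p under 0.05, beside 1338 of 10670 genes tested), edgeR 0 and DESeq2 1. Ryr2, the calcium release channel of the sarcoplasmic reticulum, averaged 332 CPM in Isl1Cre, against 144 and 213 CPM in Nkx2-5Cre, with a difference of 0.99 ± 0.25 (adjusted p = 0.0616). Its median cell had 287 CPM in Isl1Cre, against 110.5 and 157 CPM in Nkx2-5Cre. Slc8a1, the sodium-calcium exchanger, averaged 642 CPM in Isl1Cre, against 427 and 502 CPM in Nkx2-5Cre (0.55 ± 0.25, adjusted p = 0.367). Of 22 ventricular chamber genes tested, limma called 0 (5 at an unadjusted p under 0.05), as did edgeR and DESeq2, and the median was 0.26. Myl2, the ventricular light chain, averaged 7227 CPM in Isl1Cre, against 5224 and 4331 CPM in Nkx2-5Cre (0.68 ± 0.23, adjusted p = 0.175), and its median cell had 7134 CPM in Isl1Cre, against 4693 and 2458 CPM in Nkx2-5Cre.

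The natriuretic and hormone genes split. Nppb, which encodes a stretch-induced natriuretic peptide, averaged 437 CPM in Isl1Cre, against 178 and 227 CPM in Nkx2-5Cre, so Isl1Cre was above both, but the difference of 1.19 ± 0.43 missed the threshold (adjusted p = 0.234). Nppa, a marker of chamber muscle, averaged 1280.5 CPM in Isl1Cre, against 1088 and 1309 CPM in Nkx2-5Cre, a level between the others, although its median cell had 671 CPM in Isl1Cre, against 199 and 198 CPM in Nkx2-5Cre. Cck, a peptide hormone gene used here as a heart muscle marker, averaged 485 CPM in Isl1Cre, against 382 and 494 CPM in Nkx2-5Cre (0.23 ± 0.24, adjusted p = 0.778), and it was -0.030 by edgeR and -0.029 by DESeq2. Pyy, a gut hormone gene, averaged 5.72 CPM in Isl1Cre, against 56.6 and 32.9 CPM in Nkx2-5Cre, below both Nkx2-5Cre libraries. The difference of Pyy was -2.65 ± 0.46 (adjusted p = 0.00674), and -2.94 ± 0.45 in cardiomyocyte-like cells (adjusted p = 0.00437). A count of Pyy was found in 28.6% of Isl1Cre cells, against 58.1% and 32.3% of Nkx2-5Cre cells, and 1 cell gave 40.2% and 50.3% of its sum in Nkx2-5Cre replicates 1 and 2. Without Nkx2-5Cre replicate 1 both calls of Pyy were lost, at -2.26 over all cells (adjusted p = 0.0647) and -2.60 in cardiomyocyte-like cells (adjusted p = 0.0850). Over all cells it was called neither by edgeR (adjusted p = 0.296) nor by DESeq2 (adjusted p = 0.240).

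Isl1 itself was low in cells marked by Isl1Cre. It averaged 4.97 CPM in Isl1Cre, against 27.6 and 27.9 CPM in Nkx2-5Cre, and its difference was -2.20 ± 0.49 (adjusted p = 0.0370). It was a gene of few cells everywhere: a count was found in 19.8% of Isl1Cre cells, against 29.0% and 31.2% of Nkx2-5Cre cells, and in cells thinned to 20000 counts in 4.82% of Isl1Cre cells, against 16.5% and 21.8% of Nkx2-5Cre cells. Thinning left 83 Isl1Cre cells, against 85 and 87 Nkx2-5Cre cells. Fitted by limma on the thinned cells, the difference of Isl1 missed the threshold (-1.95, adjusted p = 0.0754). Over all kept cells Isl1 was not called by edgeR (adjusted p = 0.0706) but was by DESeq2 (adjusted p = 0.00170). In cardiomyocyte-like cells Isl1 averaged 5.09 CPM in Isl1Cre, against 29.1 and 32.3 CPM in Nkx2-5Cre, a difference of -2.36 ± 0.55 that missed the threshold (adjusted p = 0.103). Without Nkx2-5Cre replicate 1 or 2 the call over all cells was lost, at -2.20 or -2.19 (adjusted p = 0.125 or 0.153). Nkx2-5 averaged 269 CPM in Isl1Cre, against 211 and 150.0 CPM in Nkx2-5Cre, above both Nkx2-5Cre libraries, with a difference of 0.67 ± 0.20 (adjusted p = 0.124).

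The 250 bases before the start of Isl1 are shown because its locus gives the Isl1Cre driver its name and its own transcript differed. The window lies on the minus strand of GRCm38.p6 (RefSeq) at chr13:116309689-116309938, is 71.2% G and C, and holds none of the 5 motifs.
Isl1: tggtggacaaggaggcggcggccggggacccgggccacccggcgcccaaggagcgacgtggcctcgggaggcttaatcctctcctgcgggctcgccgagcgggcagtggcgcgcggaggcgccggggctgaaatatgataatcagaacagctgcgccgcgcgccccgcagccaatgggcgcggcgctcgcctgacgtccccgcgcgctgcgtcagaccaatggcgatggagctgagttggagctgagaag

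Genes of the outflow tract, the arterial end of the tube, leaned the other way from the contractile genes. All 24 on the list passed the filter. Isl1 was called lower and 0 were called higher, and the median difference was -0.61. Of the 24, 15 lay below both Nkx2-5Cre libraries, beside 42.1% of all genes tested. In cardiomyocyte-like cells the median was -0.72 over 22 genes, where limma called 0, edgeR 0 and DESeq2 3. In limma 14 of the 22 had an unadjusted p under 0.05, beside 914 of 10230 genes tested in those cells. Bmp4, a secreted signal of the outflow region, averaged 13.1 CPM in Isl1Cre, against 54.5 and 35.3 CPM in Nkx2-5Cre (-1.60 ± 0.44, adjusted p = 0.0909), and a count was found in 20.9% of Isl1Cre cells, against 53.8% and 44.1% of Nkx2-5Cre cells. Mef2c, a muscle transcription factor of the second heart field, averaged 251 CPM in Isl1Cre, against 219.6 and 233 CPM in Nkx2-5Cre (0.22 ± 0.23, adjusted p = 0.769). Fgf10, a growth factor of the second heart field, averaged 17.9 CPM in Isl1Cre, against 11.1 and 3.34 CPM in Nkx2-5Cre, but 1 cell of 2439 counts gave 25.2% of its Isl1Cre sum.

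Tbx5, the T-box factor of the atria, inflow and left ventricle, was higher in Isl1Cre. It averaged 47.8 CPM in Isl1Cre, against 16.3 and 16.8 CPM in Nkx2-5Cre and rose by 1.55 ± 0.31 (adjusted p = 0.0198). A count was found in 72.5% of Isl1Cre cells, against 38.7% and 44.1% of Nkx2-5Cre cells, and after thinning to 20000 counts in 43.4% of Isl1Cre cells, against 25.9% and 19.5% of Nkx2-5Cre cells. The difference was 1.30 ± 0.34 in cardiomyocyte-like cells (adjusted p = 0.163). The call was lost without Nkx2-5Cre replicate 1 (1.53, adjusted p = 0.0725), without replicate 2 (1.58, adjusted p = 0.0869) and without a cluster of shallow cells described below (1.29, adjusted p = 0.0553). It was called neither by edgeR (adjusted p = 0.339) nor by DESeq2 (adjusted p = 0.234). Of the 16 atrial and inflow genes tested, Tbx5 was the one called and the median was 0.28. Of 35 heart transcription factors tested, Tbx5 was called higher and Isl1 lower, and the median was 0.22. Srf, the serum response factor that drives muscle actin genes, averaged 73.4 CPM in Isl1Cre, against 40.0 and 37.2 CPM in Nkx2-5Cre (0.98 ± 0.27, adjusted p = 0.0908). Gata4, a zinc finger factor of early heart, averaged 53.6 CPM in Isl1Cre, against 61.6 and 44.5 CPM in Nkx2-5Cre, between the Nkx2-5Cre libraries.

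Inhibitor-of-differentiation genes, classic targets of BMP signalling, split between 2 that were lower and 1 that was level. Id3 averaged 156 CPM in Isl1Cre, against 414 and 481 CPM in Nkx2-5Cre, and fell by 1.44 ± 0.19 on the log2 scale (adjusted p = 0.000335). Its median cell had 48.6 CPM in Isl1Cre, against 214 and 203 CPM in Nkx2-5Cre, so the median cells were ordered like the means. Id1 averaged 87.7 CPM in Isl1Cre, against 189 and 192 CPM in Nkx2-5Cre, and fell by 1.04 ± 0.21 (adjusted p = 0.0198). Id2 averaged 421 CPM in Isl1Cre, against 464 and 413 CPM in Nkx2-5Cre, between the Nkx2-5Cre libraries (0.02 ± 0.19, adjusted p = 0.989). In cardiomyocyte-like cells Id3 averaged 126 CPM in Isl1Cre, against 229.6 and 289 CPM in Nkx2-5Cre (-1.0 ± 0.23, adjusted p = 0.103). In the same cells Id1 averaged 80.4 CPM in Isl1Cre, against 170.0 and 175 CPM in Nkx2-5Cre (-1.06 ± 0.22, adjusted p = 0.0528). The all-cell call of Id1 was lost without Nkx2-5Cre replicate 1 (-1.04, adjusted p = 0.0754) and without replicate 2 (-1.02, adjusted p = 0.106). Of 25 BMP and TGF-beta genes, 19 passed the filter, 2 were called lower and 0 higher, and the median was -0.39. Of the 19, 13 lay below both Nkx2-5Cre libraries, beside 42.1% of all genes tested. Nog, which encodes the BMP antagonist noggin, stood on the other side, at 12.2 CPM in Isl1Cre, against 2.77 and 2.60 CPM in Nkx2-5Cre (1.91 ± 0.66, adjusted p = 0.199).

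**Figure D3:**
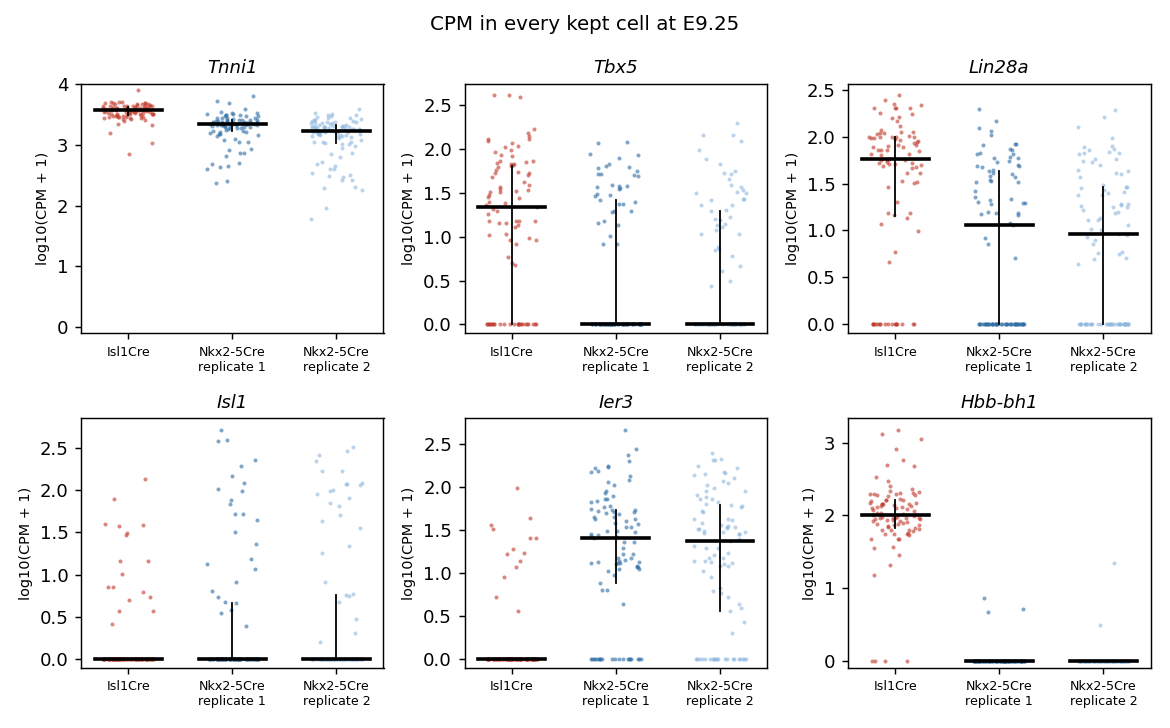
log10(CPM + 1) in every kept cell of each E9.25 library for 6 genes, Isl1Cre in red left of Nkx2-5Cre replicates 1 and 2 in blue. Each point is a cell, the thick line the median and the thin line the quartile range. The median Tnni1 level is 3766 CPM in Isl1Cre, against 2193 and 1676 CPM in Nkx2-5Cre, whereas Isl1 is at 0 in most cells of all 3 libraries.

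Most endothelial markers had their lowest level in Isl1Cre. All 20 passed the filter, and 18 lay below both Nkx2-5Cre libraries, beside 42.1% of all genes tested. Of the 20 markers, 5 were called lower and 0 higher, and the median difference was -1.94. Their levels summed to 271 CPM in Isl1Cre, against 786 and 1159 CPM in Nkx2-5Cre, and within cardiomyocyte-like cells to 159.8 CPM in Isl1Cre, against 259 and 248 CPM in Nkx2-5Cre. Tie1, an orphan receptor of endothelial cells, averaged 0.146 CPM in Isl1Cre, against 24.4 and 37.7 CPM in Nkx2-5Cre. With a level this near 0 in Isl1Cre its fitted difference of -4.75 ± 0.79 (adjusted p = 0.00527) depends on the added 1 CPM. Tek, the angiopoietin receptor, averaged 3.54 CPM in Isl1Cre, against 33.8 and 34.3 CPM in Nkx2-5Cre, a difference of -2.89 ± 0.55 (adjusted p = 0.0151). Plvap, a diaphragm protein of vessel walls, averaged 6.33 CPM in Isl1Cre, against 49.4 and 62.1 CPM in Nkx2-5Cre (-2.88 ± 0.59, adjusted p = 0.0217). Cd34, a surface glycoprotein of vessels, averaged 3.77 CPM in Isl1Cre, against 22.8 and 71.7 CPM in Nkx2-5Cre (-3.06 ± 0.62, adjusted p = 0.0199), but 1 cell gave 86.8% of its Isl1Cre sum and 1 shallow cell 45.1% of its sum in Nkx2-5Cre replicate 2. Gngt2, a G protein gamma subunit, averaged 17.4 CPM in Isl1Cre, against 83.5 and 133 CPM in Nkx2-5Cre (-2.46 ± 0.49, adjusted p = 0.0198). Ets1, an ETS factor of endothelium, averaged 20.7 CPM in Isl1Cre, against 84.2 and 132 CPM in Nkx2-5Cre, and its difference of -2.22 ± 0.64 missed the threshold (adjusted p = 0.115). In cardiomyocyte-like cells limma called 0 of the 13 markers tested, as did edgeR and DESeq2, and Tie1 was not tested. In limma 5 of the 13 had an unadjusted p under 0.05, beside 914 of 10230 genes tested in those cells.

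Leaving out a library ended several endothelial calls. Without Nkx2-5Cre replicate 2 all 5 were lost, at -4.44 for Tie1 (adjusted p = 0.0605), -2.87 for Tek (adjusted p = 0.0893), -2.71 for Plvap (adjusted p = 0.141), -2.25 for Cd34 (adjusted p = 0.192) and -2.12 for Gngt2 (adjusted p = 0.153). Without replicate 1, Tek and Plvap were lost, at -2.89 and -3.03 (adjusted p = 0.0670 and 0.0703), and Cd34 stood at -3.86 (adjusted p = 0.00876). Gngt2 was called neither by edgeR (adjusted p = 0.192) nor by DESeq2 (adjusted p = 0.160). Over all cells edgeR called 0 of the 20 markers and DESeq2 5.

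The windows before Tie1 and Tek are shown beside the troponin windows because these receptor genes fell together. Tie1 lies at chr4:118489850-118490099 on the minus strand and Tek at chr4:94739039-94739288 on the + strand of GRCm38.p6 (RefSeq). Neither holds any of the 5 motifs, and over all windows 12.2% hold CCGGAA.
Tie1: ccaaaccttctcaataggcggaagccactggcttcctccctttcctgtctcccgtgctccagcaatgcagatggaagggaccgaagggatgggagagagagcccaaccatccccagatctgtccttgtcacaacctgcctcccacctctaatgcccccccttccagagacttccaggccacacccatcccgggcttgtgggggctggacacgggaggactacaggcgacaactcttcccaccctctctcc
Tek: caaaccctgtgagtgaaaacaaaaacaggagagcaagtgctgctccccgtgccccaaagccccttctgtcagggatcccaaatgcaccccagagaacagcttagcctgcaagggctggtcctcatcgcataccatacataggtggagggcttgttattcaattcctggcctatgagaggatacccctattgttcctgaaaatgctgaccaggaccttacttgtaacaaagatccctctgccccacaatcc

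Matrix genes leaned towards Nkx2-5Cre as well. Of 40 extracellular matrix genes, 31 passed the filter, 5 were called lower (Col18a1, Fbn1, Fn1, Hapln1 and Nid1) and 0 higher, and the median was -0.46. Of the 31, 25 lay below both Nkx2-5Cre libraries, beside 42.1% of all genes tested. In cardiomyocyte-like cells the median was -0.47, where limma called 0, edgeR 0 and DESeq2 1. In limma 6 of the matrix genes had an unadjusted p under 0.05 there, beside 914 of 10230 genes tested. Fn1, fibronectin, averaged 79.7 CPM in Isl1Cre, against 272 and 419.9 CPM in Nkx2-5Cre, and fell by 2.00 ± 0.30 (adjusted p = 0.00187). In cardiomyocyte-like cells Fn1 averaged 61.4 CPM in Isl1Cre, against 74.6 and 155 CPM in Nkx2-5Cre (-0.77 ± 0.38, adjusted p = 0.573). Col18a1, a basement membrane collagen, averaged 147 CPM in Isl1Cre, against 519 and 498 CPM in Nkx2-5Cre, and fell by 1.71 ± 0.21 (adjusted p = 0.000200). In cardiomyocyte-like cells Col18a1 averaged 126 CPM in Isl1Cre, against 273 and 219 CPM in Nkx2-5Cre (-0.92 ± 0.21, adjusted p = 0.103). Hapln1, the link protein that ties hyaluronan to versican in cardiac jelly, averaged 25.6 CPM in Isl1Cre, against 120.3 and 127 CPM in Nkx2-5Cre (-2.16 ± 0.46, adjusted p = 0.0265). Hapln1 was called neither by edgeR (adjusted p = 0.185) nor by DESeq2 (adjusted p = 0.152). The call of Hapln1 was lost without Nkx2-5Cre replicate 1 (-2.19, adjusted p = 0.103) and without replicate 2 (-2.11, adjusted p = 0.141). Nid1, a basement membrane linker, averaged 1.33 CPM in Isl1Cre, against 21.7 and 65.4 CPM in Nkx2-5Cre, so near 0 in Isl1Cre that its fitted difference of -4.01 ± 0.77 (adjusted p = 0.0151) depends on the added 1 CPM. It was -4.77 without replicate 1 (adjusted p = 0.0155), and its call was lost without replicate 2 (-3.23, adjusted p = 0.146). Fbn1, a microfibril protein, averaged 4.92 CPM in Isl1Cre, against 19.3 and 41.3 CPM in Nkx2-5Cre (-2.24 ± 0.47, adjusted p = 0.0238), and its call was lost without replicate 2 (-1.71, adjusted p = 0.202), and it was called neither by edgeR (adjusted p = 0.206) nor by DESeq2 (adjusted p = 0.0502). Col2a1, a fibrillar collagen best known from cartilage, stood on the other side, at 367 CPM in Isl1Cre, against 205 and 249 CPM in Nkx2-5Cre (0.77 ± 0.21, adjusted p = 0.0921). The endothelial-like share moved with the matrix genes, and its part in the all-cell differences was not tested.

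Cytoskeletal genes went both ways. Of 21 smooth muscle and actin genes, all of which passed the filter, Actg1, Tagln2 and Vim were called lower and Tagln higher, with a median of -0.05. In cardiomyocyte-like cells limma called 0 of them (5 at an unadjusted p under 0.05, beside 914 of 10230 genes tested), as did edgeR and DESeq2. Over all cells edgeR called 0 as well and DESeq2 5. The endothelial-like share moved with these genes, and its part in the all-cell differences was not tested. Tagln, a smooth muscle actin-binding gene that embryonic heart muscle also expresses, averaged 1289.6 CPM in Isl1Cre, against 694 and 488 CPM in Nkx2-5Cre, and rose by 1.22 ± 0.26 (adjusted p = 0.0247). Its median cell had 1249 CPM in Isl1Cre, against 595 and 424 CPM in Nkx2-5Cre. In cardiomyocyte-like cells the difference of Tagln was 0.97 ± 0.22 (adjusted p = 0.103), that of Actg1 -0.63 ± 0.17 (adjusted p = 0.206) and that of Tagln2 -0.70 ± 0.43 (adjusted p = 0.668). Vim, vimentin, averaged 278 CPM in Isl1Cre, against 768 and 946 CPM in Nkx2-5Cre, and fell by 1.54 ± 0.20 (adjusted p = 0.000354). In cardiomyocyte-like cells Vim averaged 241 CPM in Isl1Cre, against 340.3 and 398 CPM in Nkx2-5Cre (-0.58 ± 0.21, adjusted p = 0.388), still below both. Actg1, cytoplasmic gamma actin, averaged 697 CPM in Isl1Cre, against 1193 and 1469.8 CPM in Nkx2-5Cre, and fell by 0.85 ± 0.14 (adjusted p = 0.00521). Tagln2, a transgelin of non-muscle cells, averaged 34.4 CPM in Isl1Cre, against 121 and 116 CPM in Nkx2-5Cre, and fell by 1.68 ± 0.29 (adjusted p = 0.00674). Without Nkx2-5Cre replicate 2 the calls of Tagln (0.97, adjusted p = 0.200), Actg1 (-0.69, adjusted p = 0.0818) and Tagln2 (-1.70, adjusted p = 0.0546) were lost.

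Among 22 immediate early and heat shock genes tested, 2 were called lower and 0 higher, with a median of -0.14. Ier3, an early response gene of cell stress, averaged 3.801 CPM in Isl1Cre, against 47.4 and 44.2 CPM in Nkx2-5Cre, and fell by 3.22 ± 0.57 on the log2 scale (adjusted p = 0.00771). A count of Ier3 was found in 15.4% of Isl1Cre cells, against 78.5% and 77.4% of Nkx2-5Cre cells, and after thinning to 20000 counts in 7.23% of Isl1Cre cells, against 35.3% and 42.5% of Nkx2-5Cre cells. Fitted on the thinned cells, its difference missed the threshold over all cells (-2.53, adjusted p = 0.0909) and in cardiomyocyte-like cells (-2.62, adjusted p = 0.126). In cardiomyocyte-like cells its difference was -3.31 ± 0.56 (adjusted p = 0.0123), a call lost without Nkx2-5Cre replicate 1 (-3.18, adjusted p = 0.118) or 2 (-3.43, adjusted p = 0.0863). Over all cells the call was lost without replicate 2 (-3.27, adjusted p = 0.0588). Ier2, another early response gene, averaged 60.2 CPM in Isl1Cre, against 138 and 134 CPM in Nkx2-5Cre, and fell by 1.09 ± 0.23 (adjusted p = 0.0264). The call of Ier2 was lost without replicate 1 (-1.06, adjusted p = 0.113) and without replicate 2 (-1.10, adjusted p = 0.123).

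Genes of developmental timing leaned towards Isl1Cre. Of 15 on the list, 11 passed the filter, 2 were called higher and 0 lower, and the median was 0.56. Of the 11, 8 lay above both Nkx2-5Cre libraries, beside 31.4% of all genes tested. In cardiomyocyte-like cells the median was 0.54, where limma called 0, edgeR 0 and DESeq2 2. In limma 5 of the timing genes had an unadjusted p under 0.05 there, beside 914 of 10230 genes tested. Lin28a, an RNA-binding protein that blocks let-7 maturation in early embryos, averaged 71.5 CPM in Isl1Cre, against 25.7 and 22.9 CPM in Nkx2-5Cre, and rose by 1.59 ± 0.31 (adjusted p = 0.0151). Its median cell had 57.3 CPM in Isl1Cre, against 10.3 and 8.07 CPM in Nkx2-5Cre. Sall4, a zinc finger factor of early embryonic cells, averaged 152 CPM in Isl1Cre, against 68.5 and 61.8 CPM in Nkx2-5Cre, and rose by 1.29 ± 0.26 (adjusted p = 0.0186). Without Nkx2-5Cre replicate 2 the calls of Lin28a (1.52, adjusted p = 0.0934) and Sall4 (1.22, adjusted p = 0.103) were lost. Hmga2, a chromatin protein and let-7 target, averaged 343 CPM in Isl1Cre, against 263 and 227 CPM in Nkx2-5Cre (0.56 ± 0.24, adjusted p = 0.322).

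Limma called 0 genes of cell division. All 42 G2 and M phase genes passed the filter, with a median of 0.30 over all cells and 0.48 in cardiomyocyte-like cells. Of the 42, 29 lay above both Nkx2-5Cre libraries, beside 31.4% of all genes tested. In limma 10 of the 42 had an unadjusted p under 0.05, beside 1338 of 10670 genes tested. Of the 42, edgeR called 0 and DESeq2 called 4. Ccnb1, the mitotic cyclin, averaged 282 CPM in Isl1Cre, against 172 and 179 CPM in Nkx2-5Cre (0.75 ± 0.21, adjusted p = 0.0948). Nusap1, a spindle protein, averaged 139 CPM in Isl1Cre, against 74.5 and 71.7 CPM in Nkx2-5Cre (0.99 ± 0.30, adjusted p = 0.133). Of 27 S phase genes tested, 18 lay below both, beside 42.1% of all genes tested, and the median was -0.23. In limma 4 of the 27 had an unadjusted p under 0.05, and edgeR called 0 and DESeq2 1. Among 12 retinoic acid genes tested, limma, edgeR and DESeq2 called 0 (2 at an unadjusted p under 0.05 in limma). Of the 12, 8 lay below both, again beside 42.1% of all genes, and the median was -0.44. Rxra, a retinoid receptor, averaged 4.27 CPM in Isl1Cre, against 17.0 and 12.7 CPM in Nkx2-5Cre (-1.51 ± 0.45, adjusted p = 0.124).

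Metabolic and ribosomal lists had single calls. Bnip3, a hypoxia-induced mitochondrial protein, was called lower in cardiomyocyte-like cells, at 388 CPM in Isl1Cre, against 701 and 755 CPM in Nkx2-5Cre (-0.88 ± 0.16, adjusted p = 0.0245). That call was lost without Nkx2-5Cre replicate 1 (-0.93, adjusted p = 0.109) or 2 (-0.82, adjusted p = 0.210), and over all cells the difference was -0.64 ± 0.19 (adjusted p = 0.115). Of 78 oxidative phosphorylation genes tested, Ndufa12, a complex I subunit, was the one called, at 533 CPM in Isl1Cre, against 325 and 273 CPM in Nkx2-5Cre (0.91 ± 0.17, adjusted p = 0.00989). Of 72 cytosolic ribosomal protein genes tested, Rps28, a small subunit protein, was the one called, at 1738 CPM in Isl1Cre, against 1156 and 1074 CPM in Nkx2-5Cre (0.71 ± 0.12, adjusted p = 0.00674). Without replicate 2 the calls of Ndufa12 (0.79, adjusted p = 0.0910) and Rps28 (0.67, adjusted p = 0.0727) were lost. In cardiomyocyte-like cells Rps28 was called too (0.71 ± 0.13, adjusted p = 0.0245), and not without replicate 1 (0.75, adjusted p = 0.118) or 2 (0.68, adjusted p = 0.195). Ribosomal protein genes have near-identical copies in the genome, so the count of Rps28 is uncertain.

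In the other lists limma called 0 genes over all cells, apart from Id1 among 12 atrioventricular canal genes (median -0.39), Tbx5 among 13 genes of the posterior second heart field (median 0.12) and the sex-linked genes. The medians of signalling lists were -0.13 over 11 Notch genes, 0.02 over 21 Wnt genes, -0.18 over 15 FGF genes and -0.15 over 11 semaphorin, neuropilin and plexin genes. Neuregulin and chemokine lists had 4 and 5 genes tested, with medians of 0.02 and 0.12. Those of structural lists were 0.35 over 14 intercalated disc genes, 0.31 over 12 integrins and -0.28 over 10 pacemaker and ion channel genes. Those of metabolic and regulatory lists were -0.04 over 22 fatty acid and creatine genes, 0.03 over 19 cholesterol synthesis genes, 0.20 over 21 imprinted genes, 0.00 over 13 Hox genes, 0.05 over 10 stretch and YAP response genes and -0.29 over 12 cell cycle inhibitors and D cyclins. Outside the sex-linked genes, each of these lists had 0 to 6 genes at an unadjusted p under 0.05, edgeR called 2 atrioventricular canal genes and none of the others, and DESeq2 called at most 2 genes in any of them.

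**Figure D4:**
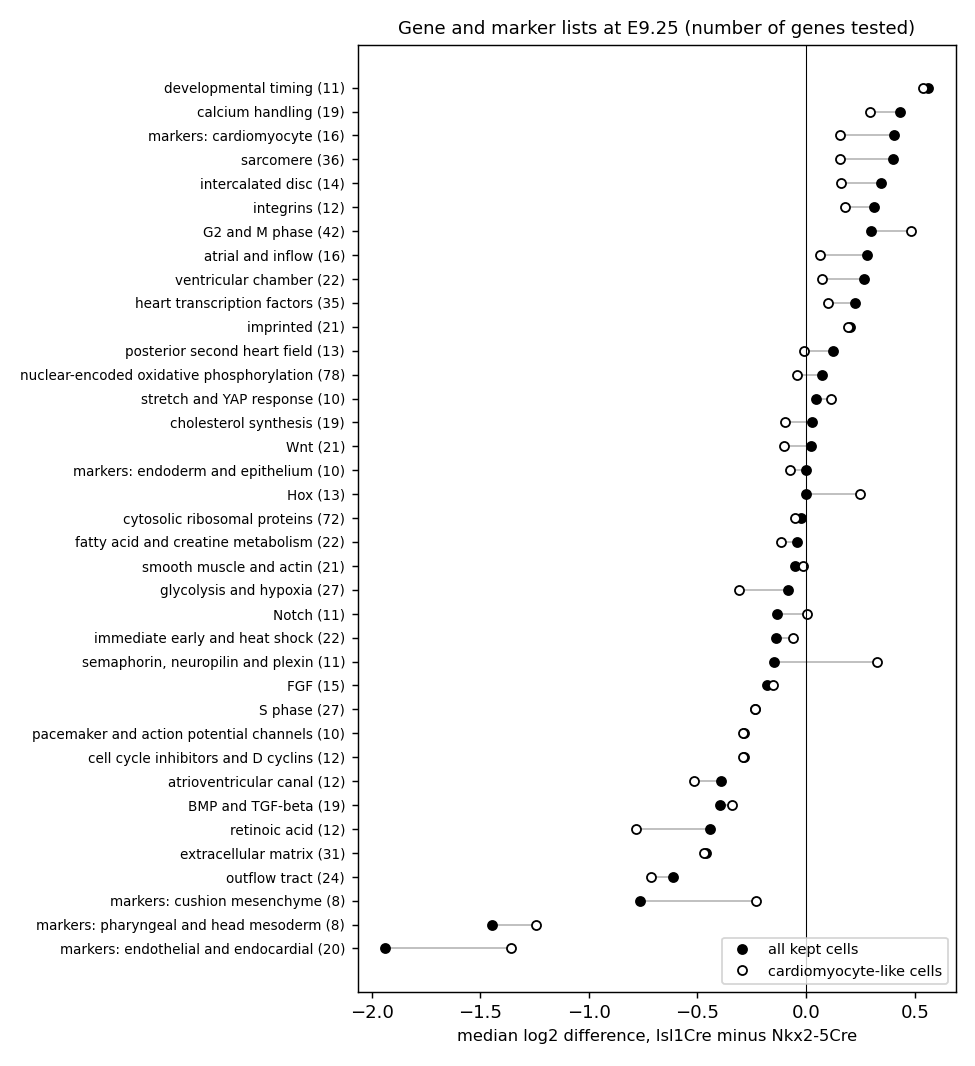
Median log2 difference, Isl1Cre minus Nkx2-5Cre, of each gene or marker list with at least 8 genes tested, over all kept cells (filled circles) and in cardiomyocyte-like cells (open circles, with fewer genes in some lists). The sarcomere median is 0.40 in all cells and 0.16 in cardiomyocyte-like cells, and that of outflow tract genes -0.61 and -0.72.

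Outside the lists, the largest called differences among well-detected genes were taken by rule. Rnd3 averaged 59.4 CPM in Isl1Cre, against 17.0 and 18.5 CPM in Nkx2-5Cre, and rose by 1.76 ± 0.25 (adjusted p = 0.00107). Wnk1, a kinase of ion transport, averaged 406 CPM in Isl1Cre, against 136 and 204 CPM in Nkx2-5Cre, and rose by 1.35 ± 0.28 (adjusted p = 0.0238). Senp6, a SUMO protease, averaged 163 CPM in Isl1Cre, against 69.6 and 68.1 CPM in Nkx2-5Cre, and rose by 1.30 ± 0.23 (adjusted p = 0.00724). These 3 were also called in cardiomyocyte-like cells, at 1.51 ± 0.29, 1.45 ± 0.23 and 1.29 ± 0.25 (adjusted p = 0.0282, 0.00593 and 0.0283). There the calls of Rnd3 and Senp6 were lost without Nkx2-5Cre replicate 1 (1.45 and 1.24, adjusted p = 0.147 and 0.164) or 2 (1.57 and 1.34, adjusted p = 0.123 and 0.138), and that of Wnk1 without replicate 1 (1.31, adjusted p = 0.0954). Over all cells Wnk1 was lost without replicate 1 (1.07, adjusted p = 0.160) and Senp6 without replicate 2 (1.29, adjusted p = 0.0546).

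Alpk3, a kinase-like protein of heart muscle, averaged 221 CPM in Isl1Cre, against 69.2 and 76.1 CPM in Nkx2-5Cre, and rose by 1.66 ± 0.34 (adjusted p = 0.0199). Its median cell had 180.3 CPM in Isl1Cre, against 59.9 and 49.0 CPM in Nkx2-5Cre. Pam, which amidates peptide hormones, averaged 429 CPM in Isl1Cre, against 200.5 and 169 CPM in Nkx2-5Cre, and rose by 1.29 ± 0.25 (adjusted p = 0.0175). Mpv17l, a mitochondrial membrane protein, averaged 68.0 CPM in Isl1Cre, against 28.3 and 23.3 CPM in Nkx2-5Cre, and rose by 1.44 ± 0.30 (adjusted p = 0.0247). Without Nkx2-5Cre replicate 1 the calls of Alpk3 and Mpv17l were lost (1.61 and 1.59, adjusted p = 0.0992 and 0.0522), and without replicate 2 those of all 3 (1.74, 1.18 and 1.31, adjusted p = 0.0888, 0.123 and 0.153). Gm1821, annotated as a pseudogene, averaged 1524 CPM in Isl1Cre, against 626 and 509 CPM in Nkx2-5Cre (1.505 ± 0.19, adjusted p = 0.000216), and its count is uncertain because reads of near-identical copies could be split.

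For 6 other genes higher by the same rule, the Isl1Cre mean rested in part on single shallow cells. Narf averaged 80.1 CPM in Isl1Cre, against 29.5 and 28.1 CPM in Nkx2-5Cre (1.51 ± 0.30, adjusted p = 0.0186), but 1 cell with 7719 counts gave 55.1% of the Isl1Cre sum and its median cell had 13.6 CPM in Isl1Cre, against 16.9 and 11.9 CPM in Nkx2-5Cre. Trmt11, a subunit of a tRNA methyltransferase, averaged 92.4 CPM in Isl1Cre, against 32.5 and 32.5 CPM in Nkx2-5Cre (1.55 ± 0.33, adjusted p = 0.0247), with 46.8% of the Isl1Cre sum in 1 cell of 4829 counts. Uspl1, a SUMO protease, averaged 118 CPM in Isl1Cre, against 49.8 and 46.5 CPM in Nkx2-5Cre (1.35 ± 0.30, adjusted p = 0.0377), with 54.3% in 1 cell of 2058 counts. Smap1, a GTPase activator of vesicle traffic, averaged 98.5 CPM in Isl1Cre, against 37.0 and 46.8 CPM in Nkx2-5Cre (1.30 ± 0.26, adjusted p = 0.0181), and Kif2a, a microtubule-depolymerising kinesin, averaged 106 CPM in Isl1Cre, against 31.5 and 47.7 CPM in Nkx2-5Cre (1.505 ± 0.31, adjusted p = 0.0217). In Smap1 and Kif2a 1 cell gave 36.1% and 29.9% of the Isl1Cre sum, yet the median cell had 52.4 CPM in Isl1Cre, against 12.1 and 25.5 CPM in Nkx2-5Cre for Smap1 and 65.2 CPM in Isl1Cre, against 9.49 and 20.3 CPM in Nkx2-5Cre for Kif2a. Dazap2, a small adaptor protein, averaged 109 CPM in Isl1Cre, against 48.9 and 28.0 CPM in Nkx2-5Cre (1.61 ± 0.36, adjusted p = 0.0335), and 1 cell gave 16.5%.

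The shallow cells form a cluster of 70 cells over the series with a median of 3238 counts, 6 of them Isl1Cre cells, against 4 in each Nkx2-5Cre library at E9.25. Without that cluster limma called 88 genes, and the calls of all 6 genes of the last paragraph were lost. They stood at 0.31 for Narf (adjusted p = 0.733), 0.21 for Trmt11 (adjusted p = 0.842), 0.14 for Uspl1 (adjusted p = 0.903), 0.61 for Smap1 (adjusted p = 0.313), 1.04 for Kif2a (adjusted p = 0.0866) and 0.995 for Dazap2 (adjusted p = 0.209). Without Nkx2-5Cre replicate 1 the calls of Narf (1.56, adjusted p = 0.0637), Trmt11 (1.56, adjusted p = 0.0951), Uspl1 (1.41, adjusted p = 0.103), Smap1 (1.14, adjusted p = 0.103) and Kif2a (1.22, adjusted p = 0.139) were lost as well. Without replicate 2 those of Narf (1.49, adjusted p = 0.0910), Trmt11 (1.56, adjusted p = 0.112), Uspl1 (1.31, adjusted p = 0.161) and Dazap2 (1.22, adjusted p = 0.222) were lost. Of these 6 genes, DESeq2 called Kif2a and edgeR called 0. In cardiomyocyte-like cells Uspl1 was called (1.40 ± 0.26, adjusted p = 0.0246), and not without replicate 1 (1.55, adjusted p = 0.0820) or 2 (1.26, adjusted p = 0.210).

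Lower by the same rule, beside genes already described, were Erdr1, F2r, Igfbp4, Cramp1l, Pop4 and Laptm4b. Erdr1, which lies where the X and Y chromosomes pair, averaged 39.7 CPM in Isl1Cre, against 162 and 158 CPM in Nkx2-5Cre (-1.91 ± 0.32, adjusted p = 0.00527). In cardiomyocyte-like cells its difference was -1.85 ± 0.29 (adjusted p = 0.00593), a call lost without Nkx2-5Cre replicate 1 (-1.69, adjusted p = 0.0963). F2r, a thrombin receptor, averaged 35.1 CPM in Isl1Cre, against 97.2 and 135 CPM in Nkx2-5Cre (-1.61 ± 0.28, adjusted p = 0.00674), and its call was lost without replicate 2 (-1.36, adjusted p = 0.0869). Igfbp4, an IGF-binding protein, averaged 45.3 CPM in Isl1Cre, against 149.8 and 129.7 CPM in Nkx2-5Cre (-1.53 ± 0.26, adjusted p = 0.00559). Cramp1l averaged 10.8 CPM in Isl1Cre, against 30.9 and 38.9 CPM in Nkx2-5Cre (-1.53 ± 0.33, adjusted p = 0.0283). Pop4, a subunit of RNase P, averaged 26.6 CPM in Isl1Cre, against 68.2 and 79.5 CPM in Nkx2-5Cre (-1.36 ± 0.28, adjusted p = 0.0217). Laptm4b, a lysosomal membrane protein, averaged 30.3 CPM in Isl1Cre, against 86.0 and 77.4 CPM in Nkx2-5Cre (-1.33 ± 0.31, adjusted p = 0.0472). In all 3 the Isl1Cre level lay below both Nkx2-5Cre levels, and their calls were lost without replicate 1 (-1.68, -1.46 and -1.24, adjusted p = 0.0641, 0.0605 and 0.165) and without replicate 2 (-1.36, -1.25 and -1.40, adjusted p = 0.185, 0.143 and 0.141).

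Transcripts of the embryonic globin Hbb-bh1 were in almost every Isl1Cre cell. Hbb-bh1, a beta-like globin of primitive red cells, averaged 169 CPM in Isl1Cre, against 0.151 and 0.250 CPM in Nkx2-5Cre, and Hba-x, an alpha-like globin, averaged 42.7 CPM in Isl1Cre, against 0.601 and 0 CPM in Nkx2-5Cre. Limma called both higher (adjusted p = 2.61e-06 and 0.000174), whereas DESeq2 did not (adjusted p = 0.537 and 0.732), and with Nkx2-5Cre at or near 0 no fold is given. A count of Hbb-bh1 was found in 95.5% of the 89 cardiomyocyte-like Isl1Cre cells, against 2.53% and 1.33% of such Nkx2-5Cre cells. Both endothelial-like Isl1Cre cells had it too, at a median of 134.5 CPM, beside 95.5 CPM in cardiomyocyte-like Isl1Cre cells. The 9 blood markers summed to 223 CPM in Isl1Cre, against 7.755 and 21.8 CPM in Nkx2-5Cre, and the number of them at 0 was 2 in Isl1Cre, against 4 and 6 in Nkx2-5Cre. Hbb-y, also an embryonic globin, averaged 5.56 CPM in Isl1Cre, against 6.03 and 21.2 CPM in Nkx2-5Cre, just below Nkx2-5Cre replicate 1. A count of Hba-x was found in 79.1% of Isl1Cre cells, against 1.07% and 0% of Nkx2-5Cre cells, and after thinning to 20000 counts in 32.5% of Isl1Cre cells, against 1.18% and 0% of Nkx2-5Cre cells. A count of Hbb-y was found in 33.0% of Isl1Cre cells, against 12.9% and 23.7% of Nkx2-5Cre cells. At E8.75 Hbb-bh1 lay on the other side, with group means of 0 CPM in Isl1Cre and 587 CPM in Nkx2-5Cre. The part of free RNA or attached blood cells in these values was not tested.

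A further comparison asked whether the difference at E9.25 was unlike the mean difference at the 3 earlier stages. Limma called 102 genes with a more positive difference at E9.25 (0.956%) and 66 with a more negative one (0.619%), and 62 of these were among the 95 called at E9.25. Of the 102, 4 are sex-linked and 2 are globin genes, and Xist is among the 66. Without Nkx2-5Cre replicate 1 there were 108 such calls and without replicate 2 there were 55. Of 36 sarcomere genes tested, 21 were called in the positive direction, with a median of 1.18, beside 0.005 over all genes. At E9.25 itself 2 of the 36 were called, with a median of 0.40. From E7.75 to E9.25 the differences were -1.94, -0.77, 0.23 and 0.73 for Myh7 and -1.65, -1.19, -0.007 and 0.68 for Myl2. The comparison used all kept cells, and the part of cell classes in it was not tested. Among the 21 were Myh6, Myh7, Myl2, Tnnt2 and Ttn, and 3 calcium handling genes were called in this direction, Ryr2 and Slc8a1 among them. The calls of Myh7 and Myl2 were kept whichever Nkx2-5Cre library was left out. Those of Ttn (1.03, adjusted p = 0.149), Ryr2 (0.89, adjusted p = 0.188) and Slc8a1 (1.16, adjusted p = 0.0998) were lost without replicate 1. Those of Tnnt2 (0.80, adjusted p = 0.0617), Myh6 (0.99, adjusted p = 0.128) and Slc8a1 (1.39, adjusted p = 0.0538) were lost without replicate 2. Tnni1 had differences of -1.25, -0.996, -0.09 and 1.05 from E7.75 to E9.25, and the last exceeded the mean of the others by 1.83 ± 0.18 (adjusted p = 7.01e-06). Its level over the 4 stages was 410.1, 1218, 2276 and 3699.8 CPM in Isl1Cre, against 997, 2398, 2422 and 1902 CPM in Nkx2-5Cre. Nppb had differences of -0.58, -1.51, -1.39 and 1.19, and E9.25 exceeded the others by 2.35 ± 0.48 (adjusted p = 0.0149), a call lost without replicate 1 (2.18, adjusted p = 0.0752) or 2 (2.53, adjusted p = 0.0501). Endothelial markers moved the other way, with 6 of 20 called in the negative direction and a median of -2.14. Their signs were not steady over the earlier stages. At E8.75 the differences of Ets1, Etv2, Gngt2, Plvap, Tek and Tie1 were 2.04, 0.66, 1.91, 1.84, 1.60 and -0.12. At E8.25 they were 0.07, 2.15, -1.42, -2.00, -1.30 and -2.08. Etv2 stood at 4.03 at E7.75 and was not called at E9.25 itself (-1.74). Without replicate 2 the calls of Ets1, Gngt2, Plvap, Tek and Tie1 were lost (-2.79, -2.01, -2.57, -2.99 and -3.93, adjusted p = 0.170, 0.197, 0.176, 0.0828 and 0.117), and that of Etv2, an ETS factor of early endothelium, was kept (-3.71, adjusted p = 0.0245). Without replicate 1 those of Ets1, Plvap and Tek were lost (-3.43, -2.89 and -3.01, adjusted p = 0.0537, 0.0875 and 0.0542). All comparisons at E9.25 share the same libraries, so these calls and those above are not independent.

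**Figure D5:**
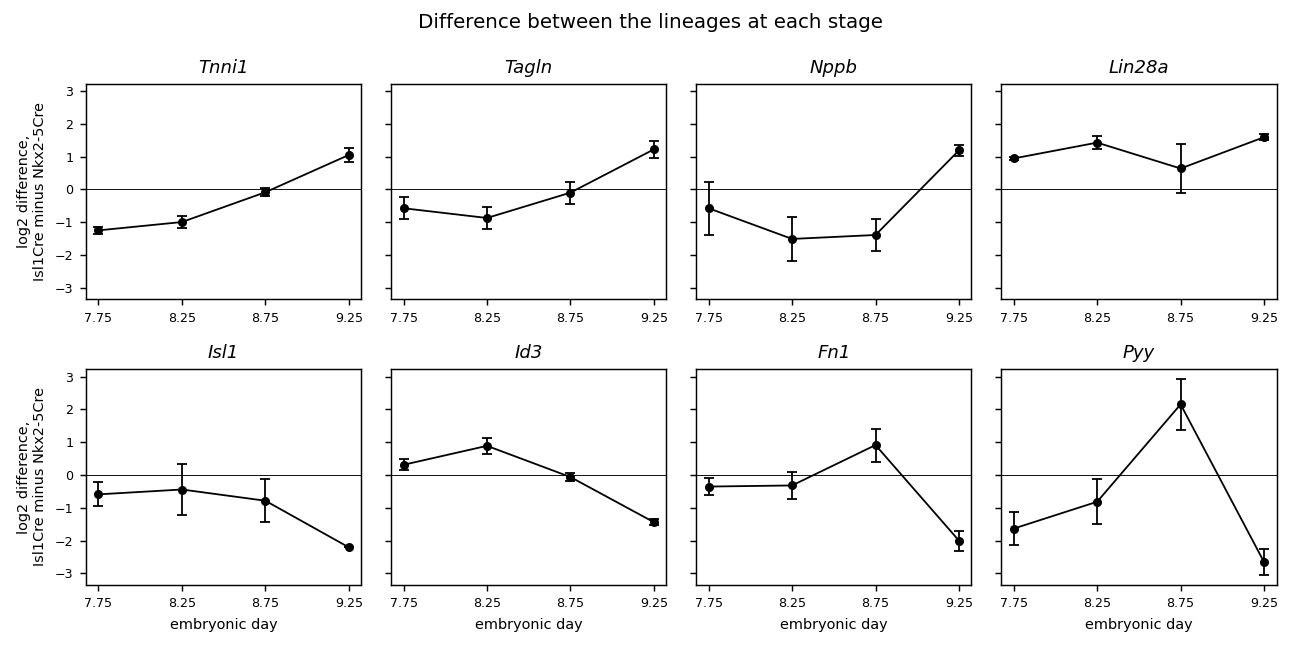
Log2 difference of scaled mean CPM + 1, Isl1Cre minus Nkx2-5Cre, at each embryonic day for 8 genes. Points are differences of group means, and whiskers run from the smallest to the largest difference between any pair of libraries. Tnni1 and Tagln lie below 0 at E7.75 and E8.25 and above 0 at E9.25, whereas the Isl1 point lies below 0 at every stage.

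By group means, Lin28a and Sall4 were on the same side at every stage, although pairs of libraries ranged from -0.11 to 1.38 for Lin28a at E8.75. The difference of Lin28a was 0.94, 1.42, 0.64 and 1.59, and that of Sall4 1.51, 0.56, 0.76 and 1.29. At E9.25 they exceeded the earlier mean by 0.59 ± 0.34 and 0.34 ± 0.28 (adjusted p = 0.489 and 0.670). The group means of Isl1 differed by less than 0 throughout, at -0.59, -0.44, -0.78 and -2.20, although pairs of libraries ranged from -1.21 to 0.32 at E8.25. At E9.25 Isl1 stood -1.60 ± 0.55 from the earlier mean (adjusted p = 0.186). Id3 stood at 0.31, 0.89, -0.06 and -1.44, and Fn1 at -0.35, -0.32, 0.91 and -2.00. Both were called against the earlier mean, at -1.82 ± 0.20 and -2.08 ± 0.33 (adjusted p = 4.57e-05 and 0.00216). Sex was not matched at every stage: by Xist and Eif2s3y, the Isl1Cre and Nkx2-5Cre embryos were female and male at E7.75, both female at E8.25, both male at E8.75, and male and female at E9.25.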

How the data were processed

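The authors deposited CPM values, each cell's counts scaled to a common total over 23154 genes, for single heart cells on mm10. Per the labels' protocols, libraries followed a modified Smart-seq2 protocol with cell barcodes and UMIs in the oligo(dT) primer, and 3′ ends were sequenced. Per the submitters' processing notes, CASAVA 1.8, TopHat2 2.0.12 and HTSeq were used. Whether counts are of reads or UMIs is not stated there or in the labels. Low values (at most 20 steps) were whole multiples of 1 count in 100% of cases within 0.1 of a step, so counts were recovered. Kept cells had at least 1000 genes above 0, and held 92068 counts in Isl1Cre, against 103223 and 123962 in Nkx2-5Cre, at the median. Intervals cover counting error only, and genes with low levels are measured by few counts per cell.

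All 1339 kept cells were clustered (2000 variable genes, 30 principal components, 15 neighbours, Leiden resolution 1.0, leidenalg 0.10.2). A cluster was named where at least 3 markers and 50% of a list were raised at least 2-fold over the 25th percentile of the other clusters. The median had been planned in its place, and the change was made after seeing the data; the E9.25 shares are the same under both. No doublet caller was run. Levels are mean CPM per library, scaled by TMM (edgeR 4.0.16). Differences are Isl1Cre minus Nkx2-5Cre in log2(level + 1), fitted by limma 3.58.1 with a trend, 1 mean per group, over genes with at least 5 CPM in at least 2 libraries, with Benjamini-Hochberg adjustment at 0.05. The fit of all kept cells used 15 libraries, that of cardiomyocyte-like cells the 11 with at least 10 such cells. On simulated data for the all-cell comparison, over 10670 genes, limma called 51 of 100 genes changed by 1.5 log2 units and 94 of 100 changed by 3, with 10 false calls. The simulated noise of every library was drawn from the fitted spread. It therefore cannot show whether the single Isl1Cre library varies more than that, and the false calls are those of the simulation only. Alternatives included edgeR and DESeq2 1.42.0 on the recovered counts, cells thinned to 5000 or 20000 counts, and leaving out a library.

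Replicate numbers do not pair samples here, since over 21 pairs of groups the deviations of same-numbered libraries correlated at -0.03 to 0.16. The members, the 36 gene lists and the 9 marker lists were chosen with earlier results of these data known, and which list members are named was chosen after their values were seen. Beside them are named the 15 largest called differences each way whose mean log2 level reached 5 or more, with the same sign in cardiomyocyte-like cells, the 8 largest each way against earlier stages, and Isl1 and Nkx2-5. Promoter sequences are RefSeq's on GRCm38.p6.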

Additional observations from a re-analysis of the deposited data

Results flagged for a closer look

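These genes were singled out because their Isl1Cre minus Nkx2-5Cre difference at E9.25 differed from the mean difference at the 3 earlier stages by limma's test of that contrast. Toward Isl1Cre, the E9.25 difference exceeded the earlier mean on the log2 scale by 2.35 for Nppb, 2.03 for Alpk3, 1.96 for Coq9, 1.91 for Dazap2, 1.90 for Trmt11, 1.83 for Tnni1, 1.75 for Pam and 1.74 for Tagln. In the other direction it stood at -3.12 for Ets1, -2.74 for Plvap, -2.56 for Pyy, -2.50 for Erdr1, -2.35 for Gngt2, -2.28 for Hapln1, -2.21 for Cramp1l and -2.08 for Fn1. Erdr1 had differences of 2.91, -0.89, -0.25 and -1.91 from E7.75 to E9.25. The sexes of the embryos differed at E7.75 and E9.25 and matched between, and the part of sex in Erdr1 was not tested. The calls of Tnni1, Alpk3, Pam, Tagln, Trmt11, Erdr1, Cramp1l and Fn1 were kept whichever Nkx2-5Cre library was left out. Trmt11, however, stood at 0.56 by edgeR, 0.56 by DESeq2 and 0.55 with cells thinned to 20000 counts (adjusted p = 0.601, 0.594 and 0.704), and 1 shallow cell gave 46.8% of its Isl1Cre sum. Those of Nppb, Ets1, Plvap and Hapln1 were lost whichever was left out, Nppb at 2.18 without replicate 1 and 2.53 without replicate 2 (adjusted p = 0.0752 and 0.0501). Coq9, Dazap2 and Gngt2 were lost without replicate 2 (2.01, 1.53 and -2.01, adjusted p = 0.0501, 0.126 and 0.197), and Pyy without replicate 1 (-2.17, adjusted p = 0.0815). Ets1 stood at -3.43 without replicate 1 and -2.79 without replicate 2 (adjusted p = 0.0537 and 0.170), Plvap at -2.89 and -2.57 (adjusted p = 0.0875 and 0.176), and Hapln1 at -2.31 and -2.24 (adjusted p = 0.0815 and 0.126). Coq9, a coenzyme Q synthesis gene, averaged 113 CPM in Isl1Cre, against 48.4 and 51.5 CPM in Nkx2-5Cre at E9.25, and 1 Isl1Cre cell of 2439 counts gave 56.0% of its sum.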

How the results depend on the processing

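Against 95 genes called over all cells (41 higher, 54 lower), there were 231 with no filter on low values (162 higher, 69 lower), 109 for the mean over cells of log2(CPM + 1) (63 higher, 46 lower), 42 with cells thinned to 5000 counts (12 higher, 30 lower), 59 with cells thinned to 20000, 34 by edgeR (20 higher, 14 lower) and 233 by DESeq2, 24 to 59 without 1 Nkx2-5Cre library and 88 without the shallow cluster. Against 27 in cardiomyocyte-like cells (16 higher, 11 lower), there were 142 with no filter (122 higher, 20 lower), 50 for the mean of log values (37 higher, 13 lower), 14 thinned to 5000 counts, 109 by DESeq2, and 11 without either Nkx2-5Cre library. Against 168 calls relative to earlier stages, there were 66 thinned to 5000 counts, 93 by edgeR, 346 by DESeq2, 95 against E8.25 and E8.75 only, and 55 to 108 without 1 Nkx2-5Cre library. Of 53 genes called over all cells and examined one by one, 20 were called by edgeR, 39 by DESeq2, 35 with cells thinned to 20000 counts, 23 thinned to 5000, 31 with no filter, 34 without replicate 1, 19 without replicate 2 and 46 without the shallow cluster, and all 53 with no TMM scaling. Of all 95, edgeR also called 25 and DESeq2 67, and 49 were called with cells thinned to 20000 counts and 30 thinned to 5000. With the mean of log values the median difference of all genes relative to earlier stages was 0.21 and 237 genes were called (199 higher, 38 lower). With no TMM scaling the median over all cells was -0.07. Counted by fold alone, a pseudocount of 10 gave 49 higher and 67 lower, and cardiomyocyte-like cells 298 lower.

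The replicate block, which treats same-numbered libraries as a pair although the numbers do not pair them, gave 116, 34 and 177 calls in the 3 comparisons, and no named call was lost under it. Ryr2, not called over all cells without the block, was called with it (adjusted p = 0.0354). Signs turned for Cck by edgeR and DESeq2 (-0.030 and -0.029), Coq9 over all cells when thinned to 5000 or 20000 counts (-1.02 and -0.15) and by edgeR and DESeq2 (-0.0035 and -0.0034), Gata4 by edgeR and DESeq2 (-0.10 each), Hbb-y with the mean of log values (0.47), Id2 without TMM scaling (-0.055) and thinned to 5000 counts (-0.22), Narf thinned to 20000 (-0.14), and Uspl1 by edgeR and DESeq2 (-0.22 each; -0.15 and -0.16 in cardiomyocyte-like cells). Relative to earlier stages Coq9 turned when thinned to 5000 counts (-0.11). Without 1 Nkx2-5Cre library Gata4 ranged over -0.12 to 0.34 and Id2 over -0.060 to 0.11. The cause was not tested. Class shares stayed within their intervals under every clustering alternative.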
